A study of Mus musculus with 12 samples.

Results

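The genes described here are 9 genes for proteins of the myelin sheath and of the oligodendrocyte that makes it, Mbp, Mog, Mag, Mobp, Cnp, Cldn11, Opalin, Ermn and Mal. They are listed by symbol, and are 9 of 55536 genes measured by bulk RNA-seq in 12 libraries of primary mouse OPCs. The OPCs were Sox10-driven GFP+ cells, or cells selected for CD140a, taken from pooled brains of several pups (postnatal days 4 to 6), and were kept in a medium for proliferation with PDGFaa and bFGF. GFP in these mice comes from a Sox10:Cre crossed with an RCE:LoxP reporter, so it marks the whole oligodendrocyte lineage and not OPCs alone. The 4 groups of 3 replicates were untreated cells (Ctr), cells given the EZH2 inhibitor EPZ011989 (EZH2i) for 4 days (1.5 μM, renewed each 48 h), cells given IFN-γ at 100 ng/ml for 6 h, and cells given EZH2i for the 4 days with IFN-γ for the last 6 h. Replicates came from different litters. The labels give EAE as the mouse model of every library, whereas the protocol they give describes cultures of pup cells and no immunization.

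Myelin genes are switched on as an OPC leaves the cell cycle and differentiates. A population of OPCs in a medium that keeps them dividing usually includes some cells that have begun to differentiate. EZH2 is the methyltransferase of PRC2, which places the repressive mark H3K27me3, and in the oligodendrocyte lineage the mark is found both at genes of other lineages and at differentiation genes. IFN-γ is a cytokine of T cells and NK cells that is known to impair myelination when OPCs meet it early. The transcription factors SOX10 and MYRF bind and activate many of the 9 genes.

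Shown here, from RefSeq (GRCm38.p6), are the promoters of Mag, Cnp and Cldn11, which passed the test for EZH2i in the presence of IFN-γ when the replicate number was a block, and not in the group-only fit. Each is the stretch before the most upstream annotated start of the gene, 5′ to 3′ on the strand of the gene, and capitals mark any match to the letters searched. These letters were ACAAAG, a form of the SOX motif, CTGGCAC, a form of the MYRF motif, TTCNNNGAA, the GAS element of genes that respond to IFN-γ, and the ISRE, the interferon-stimulated response element. Both strands were read, and no match overlapped another in these stretches.
Mag, 191 bases, chr7:30914923-30915113, minus strand: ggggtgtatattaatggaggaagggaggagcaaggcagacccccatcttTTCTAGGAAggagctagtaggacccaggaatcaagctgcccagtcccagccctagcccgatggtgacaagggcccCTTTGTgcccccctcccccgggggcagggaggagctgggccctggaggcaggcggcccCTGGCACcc
Cnp, 215 bases, chr11:100574689-100574903, plus strand: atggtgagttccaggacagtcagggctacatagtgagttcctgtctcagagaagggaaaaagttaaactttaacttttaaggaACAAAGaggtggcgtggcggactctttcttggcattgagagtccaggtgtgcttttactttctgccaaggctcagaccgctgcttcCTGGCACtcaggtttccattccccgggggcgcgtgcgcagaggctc
Cldn11, 250 bases, chr3:31149670-31149919, plus strand: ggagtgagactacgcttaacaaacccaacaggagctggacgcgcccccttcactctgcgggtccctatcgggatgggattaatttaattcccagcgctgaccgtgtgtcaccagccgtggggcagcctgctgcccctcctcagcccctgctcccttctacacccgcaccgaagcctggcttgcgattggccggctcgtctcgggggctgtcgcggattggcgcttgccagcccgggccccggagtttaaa

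Mag and Cnp each held 1 match to ACAAAG (in Mag on the other strand) and 1 to CTGGCAC. In Mag the capitals also mark 1 match to TTCNNNGAA, and Cldn11 held none of the 4 motifs. Of the 8 members with a window of 250 bases before to 50 after the start, 4 held ACAAAG, 3 held CTGGCAC, 1 held TTCNNNGAA and 0 held the ISRE. Over all 32851 windows the shares were 18.7%, 5.01%, 8.3% and 3.44%. In the Mobp window ACAAAG occurred 6 times, all on the other strand, and Opalin held it 2 times. The windows also differed in CpG content. Cldn11 held 24 CpG dinucleotides and Cnp 17, whereas Mog held 3 and Opalin 4, against a median of 7 over all windows with quartiles of 3 and 20. These are matches of letters and say nothing of binding in these cells.

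Library totals were 17403896 to 66546017 estimated counts, a range of 3.82 times, with Ctr replicate 2 the shallowest. All of the 18 OPC markers were present, with a summed level of 6888 to 12330 CPM. Microglia markers were almost absent, since 10 of 11 averaged under 1 CPM and Aif1 averaged 0.0123 CPM. Astrocyte markers were not absent, with all 10 above 1 CPM on average. The IFN-γ response was present in every library given IFN-γ, and 8 of 8 response genes rose (median log2 fold change 7.54 against Ctr). No 2 replicates agreed within sampling noise.

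Within a library, levels are compared between genes as TPM, the deposited value per transcript length. Mbp, a main structural protein of compact myelin, was the most abundant member in all 4 groups, with 375 ± 97.4 TPM in Ctr (SD, n = 3), which ranked it 103 among all genes. Cnp, an enzyme of the cytoplasmic channels in myelin, followed with 128 ± 19.7 TPM, then Mag, an adhesion molecule on the face toward the axon, with 67.8 ± 9.06 TPM, and Cldn11, the tight junction claudin of the sheath, with 31.2 ± 4.25 TPM. Lower down stood Mobp, a small basic protein of compact myelin, with 13.3 ± 4.25 TPM, and Mog, an immunoglobulin family protein of the outermost lamella, with 4.86 ± 1.79 TPM. Mal, a proteolipid of membrane traffic, had 1.33 ± 0.698 TPM, and Ermn, a cytoskeletal protein of late oligodendrocytes, 0.423 ± 0.0648 TPM. Opalin, a transmembrane protein of mature oligodendrocytes, was the lowest at 0.122 ± 0.0444 TPM.

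This order of the means was the same in all 4 groups. In Ctr no neighbours in the order overlapped between libraries. With EZH2i the ranges of Mag and Cldn11 overlapped, as did those of Mobp and Mog. With IFN-γ those of Mal and Ermn overlapped, and with IFN-γ and EZH2i those of Mbp and Cnp and of Mobp and Mog. The 9 genes together summed to 513 to 734 TPM in Ctr, and Mbp alone made up 55.5% to 65.9% of that sum.

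**Figure D1:**
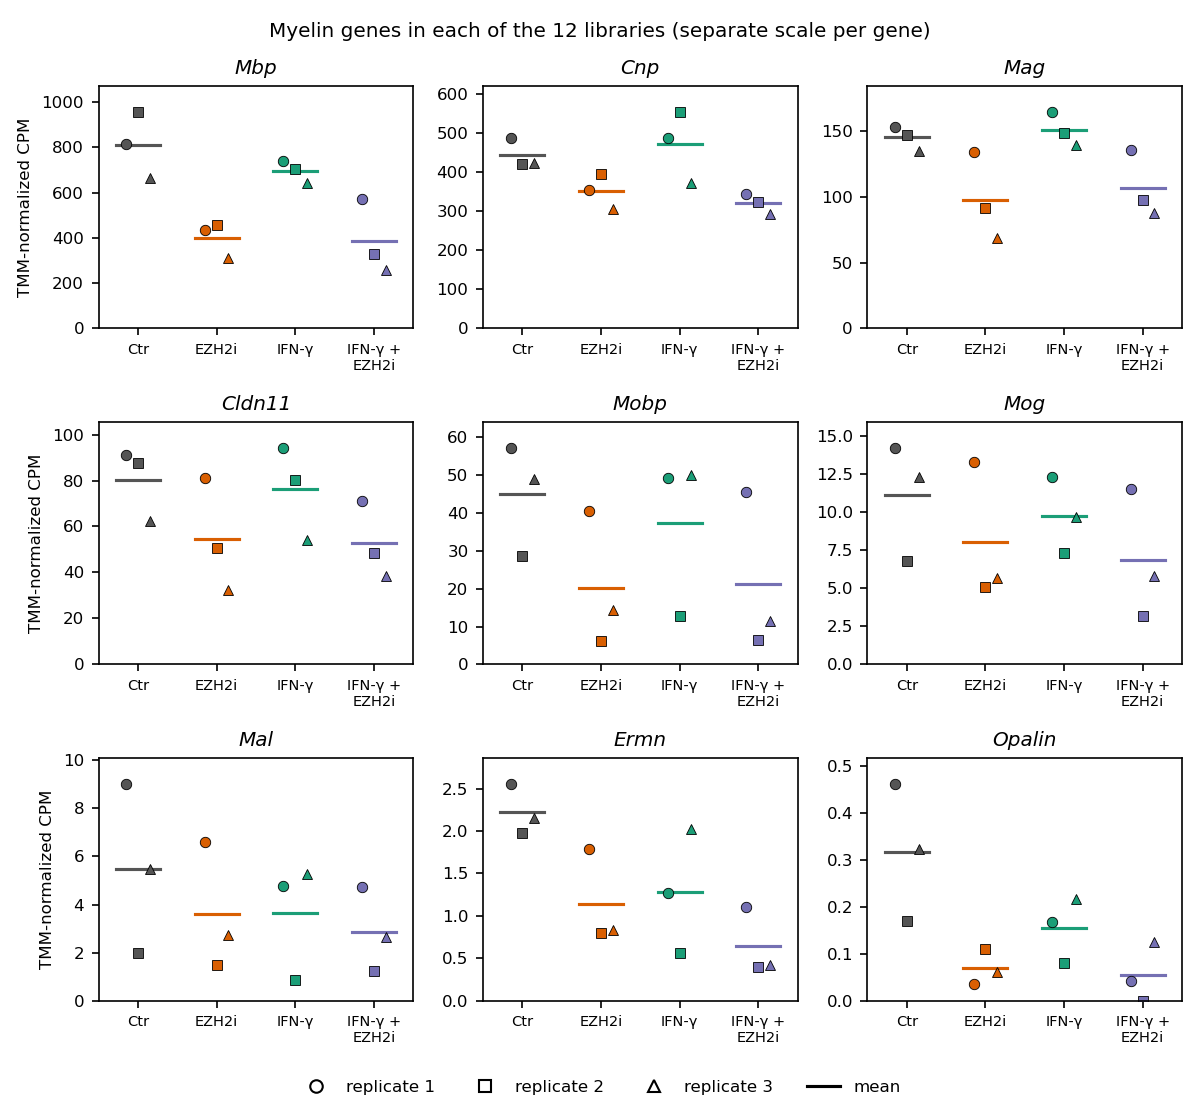
Level of each of the 9 genes in each library, as TMM-normalized CPM (y axis, from 0, with its own scale for each gene) by group (x axis), where the marker gives the replicate number and the bar the mean of 3 libraries. The 3 Mbp points with EZH2i lie between 312 and 457 CPM, all below the 3 Ctr points at 663 to 957.

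Between libraries, levels are compared as TMM-normalized CPM, that is, estimated counts scaled to library size with TMM factors, since deposited TPM is scaled to a fixed sum of which protein-coding genes held only 24.2% to 39.8%. The question put to the data was whether EZH2i and IFN-γ changed the 9 genes, with edgeR's quasi-likelihood test over all genes and Benjamini-Hochberg adjustment. A filter on low counts left 18995 genes, with 8 of the 9 members among them, and Opalin was below it. In the untreated and IFN-γ settings alike, all 8 members were lower with EZH2i, but none passed the test in the group-only fit. In bulk samples, fewer cells of a type and less RNA per cell cannot be told apart. With the replicate number as a block, Mbp, Cnp, Mag and Cldn11 fell with EZH2i in the presence of IFN-γ. That fit took in all 12 libraries, Ctr included. For IFN-γ itself no member passed in the group-only fit, with the replicate block or by DESeq2.

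Mbp (chr18:82475146-82585637, plus strand, 16 transcripts) had 814, 957 and 663 CPM in replicates 1, 2 and 3 of Ctr, and 435, 457 and 312 with EZH2i. With IFN-γ the 3 libraries had 738, 704 and 644 CPM, and with IFN-γ and EZH2i 571, 329 and 257. Thus every library with EZH2i was below every library without it. The means were 811 ± 147 CPM in Ctr, 401 ± 77.9 with EZH2i, 696 ± 47.4 with IFN-γ and 386 ± 164 with both (SD, n = 3).

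The fitted log2 fold change of Mbp with EZH2i was −1.02 (SE 0.26, edgeR adjusted p = 0.174), a ratio of 0.495, with an unadjusted p of 0.00225. In the presence of IFN-γ it was −0.85 (SE 0.26, edgeR adjusted p = 0.351). There the numbers pair the libraries, and with the replicate block the log2 fold change was −0.91 (SE 0.17, edgeR adjusted p = 0.0124). The difference between libraries of the same number was −0.37, −1.10 and −1.33 on the log2 scale.

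Cnp (chr11:100574904-100591729, plus strand) had 487, 419 and 422 CPM in Ctr and 353, 394 and 304 with EZH2i. With IFN-γ it had 486, 553 and 372 CPM, and with both 343, 323 and 292. The groups with and without EZH2i did not overlap in either setting. The log2 fold change was −0.34 (SE 0.16, edgeR adjusted p = 0.716) without IFN-γ and −0.56 (SE 0.16, edgeR adjusted p = 0.264) with it. With the replicate block the latter was −0.55 (SE 0.10, edgeR adjusted p = 0.0118), and Cnp was lower in 3 of 3 pairs. On the deposited TPM scale Cnp did not separate Ctr from EZH2i, since the means were 128 ± 19.7 and 126 ± 18.2 TPM. With counts scaled to library totals only, without TMM factors, Cnp had 427 to 463 CPM in Ctr and 327 to 422 with EZH2i.

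Mag (chr7:30899176-30914873, minus strand) had 153, 147 and 135 CPM in Ctr and 134, 91.2 and 68.4 with EZH2i, so that the groups were apart by less than 1 CPM at replicate 1 of EZH2i. With IFN-γ the values were 165, 149 and 139.8 CPM, and with both 136, 97.9 and 87.4. Replicate 1 was the highest library of each group. The log2 fold change with EZH2i was −0.57 (SE 0.22, edgeR adjusted p = 0.553) without IFN-γ, and −0.50 (SE 0.22, edgeR adjusted p = 0.761) with it. The replicate block gave −0.52 (SE 0.13, edgeR adjusted p = 0.0438) for the latter, with Mag lower in 3 of 3 pairs.

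Cldn11 (chr3:31149920-31164324, plus strand, 1 transcript) had 90.9, 87.6 and 62.3 CPM in Ctr and 81.2, 50.7 and 32.4 with EZH2i. With IFN-γ it had 94.1, 80.1 and 54.2 CPM, and with both 71.2, 48.3 and 38.5. Here the groups overlapped, since the replicates differed as much as the treatments, and replicate 3 was the lowest in every group. The log2 fold change with EZH2i was −0.55 (SE 0.33, edgeR adjusted p = 0.867) without IFN-γ. In its presence it was −0.53 (SE 0.33, edgeR adjusted p = 0.944), and −0.54 (SE 0.13, edgeR adjusted p = 0.0358) with the replicate block, lower in 3 of 3 pairs.

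The other 4 members tested were low, and Mal and Mobp varied more between replicates than Mbp, Cnp, Mag and Cldn11 did in every group. Mobp (chr9:120149707-120181484, plus strand) had 57.1, 28.7 and 49.0 CPM in Ctr, 40.4, 6.08 and 14.4 with EZH2i, 49.1, 12.7 and 50.02 with IFN-γ, and 45.5, 6.44 and 11.4 with both. With EZH2i the highest of the 3 libraries thus held 6.65 times the lowest, and it was replicate 1 that stood near the level of Ctr. The log2 fold change was −1.16 (SE 0.78, edgeR adjusted p = 0.918) without IFN-γ and −0.83 (SE 0.78, edgeR adjusted p = 0.999) with it, and in the latter the replicate block gave an edgeR adjusted p of 0.138. Without replicate 1 of EZH2i the former was −2.13, and without its replicate 2 −0.72. The latter was −2.07 without replicate 1 of IFN-γ with EZH2i and −0.40 without its replicate 2.

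Mog (chr17:37010743-37023398, minus strand) had 14.2, 6.77 and 12.3 CPM in Ctr, 13.3, 5.09 and 5.70 with EZH2i, 12.3, 7.32 and 9.71 with IFN-γ, and 11.5, 3.19 and 5.79 with both. Mal (chr2:127633226-127656695, minus strand) had 9.0, 1.98 and 5.46 CPM in Ctr, 6.61, 1.48 and 2.75 with EZH2i, 4.76, 0.878 and 5.26 with IFN-γ, and 4.74, 1.21 and 2.63 with both. In both genes replicate 2 was the lowest library of every group. Ermn (chr2:58045113-58052864, minus strand) had 2.55, 1.98 and 2.15 CPM in Ctr, 1.79, 0.794 and 0.834 with EZH2i, 1.27, 0.559 and 2.02 with IFN-γ, and 1.11, 0.395 and 0.422 with both. Ermn in Ctr lay above every library with EZH2i, on 13 to 131 counts per library. For these genes the edgeR adjusted p for EZH2i was between 0.798 and 0.999 in the group-only fit, and between 0.119 and 0.621 with the replicate block in the presence of IFN-γ.

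Opalin (chr19:41061710-41077113, minus strand) was at the limit of detection. It had 13, 3 and 19 estimated counts in Ctr, 1, 4 and 4 with EZH2i, 5, 3 and 14 with IFN-γ, and 1, 0 and 5 with both. The 0 in replicate 2 of the last group allows up to 3 counts, or 0.0904 CPM, which covers counting error only. Summed over libraries there were 35 counts in Ctr and 9 with EZH2i, and the gene was not in the filtered edgeR fit. The DESeq2 log2 fold change with EZH2i was −2.23 (DESeq2 adjusted p = 0.373) without IFN-γ and −1.40 with it. Neither passed.

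The 8 members tested in the comparison of EZH2i with Ctr had log2 fold changes of −1.16 to −0.34 with a median of −0.60, against a median of 0.01 over all genes. By edgeR's adjusted p 0 of 8 passed, where 0.405% of all genes did, all of which were higher. At an unadjusted p under 0.05, 2 of 8 were lower, Mbp and Mag, against 1.86% of all genes. The groups did not overlap for 4 of 8, Mbp, Mag, Cnp and Ermn, all lower, where 5.34% of all genes were lower without overlap. By DESeq2, which tested all 9 members, 1 passed, Mbp, with an adjusted p of 0.0244.

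In the presence of IFN-γ the range was −1.05 to −0.36 with a median of −0.55, against −0.01 over all genes. No library is shared with the comparison above, but both come from 1 fit, and treated libraries of the same number deviated together. By edgeR's adjusted p 0 of 8 passed, where 0.353% of all genes did, and DESeq2 also gave 0. At an unadjusted p under 0.05, 3 of 8 were lower, Mbp, Cnp and Mag, against 2.1% of all genes, and the same genes did not overlap between the groups, against 4.27% of all genes lower. With the replicate block 4 of 8 fell, Mbp, Cnp, Mag and Cldn11, and none rose. Over all genes 3.94% passed that test, and 0.827% did so with a lower level. Among the pairs of the same number, 7 of 8 members were lower in 3 of 3, and Mal was lower in 2 of 3. With replicate number 1 left out of all groups, an alternative chosen after seeing the data, the medians were −0.84 without IFN-γ and −0.81 with it, all 8 members were lower in both, and 0 passed.

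**Figure D2:**
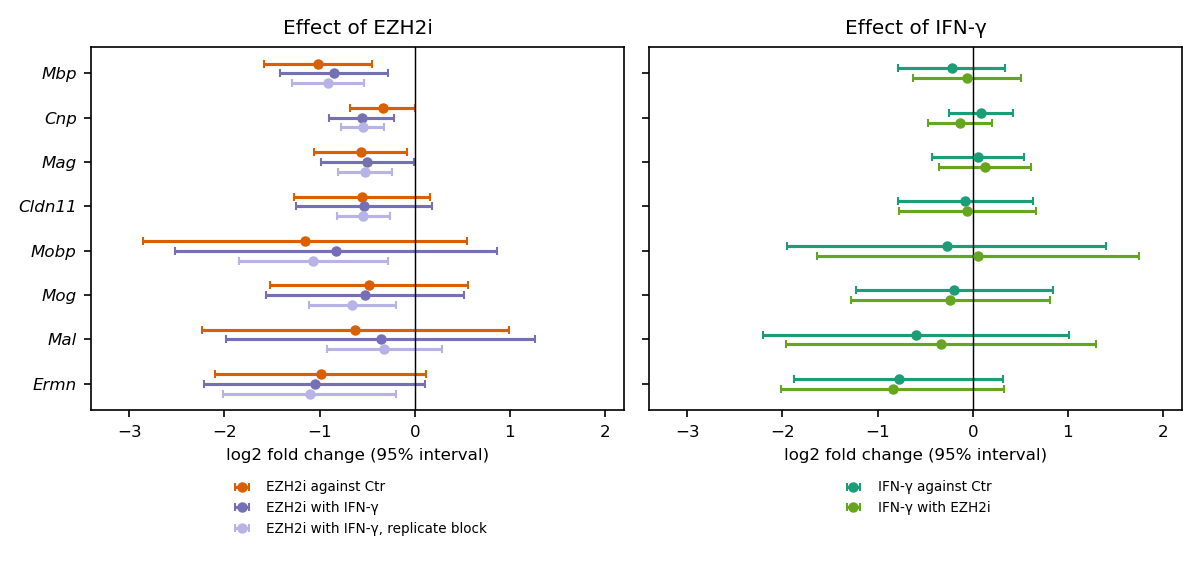
Log2 fold change of the 8 members tested (x axis, points, with 95% intervals as bars) under EZH2i (left) and IFN-γ (right), from the group-only edgeR fit and, for EZH2i with IFN-γ, also with the replicate block. All points on the left lie below 0, and the intervals with the replicate block are the narrower ones, whereas on the right every interval includes 0.

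Whether the EZH2i effect differed with IFN-γ was asked with the interaction term. There, 0 of 8 members passed edgeR's test, as did 0% of all genes, and 0 had an unadjusted p under 0.05 or passed by DESeq2. For Mbp the difference of the log2 fold changes was 0.16 (95% interval −0.64 to 0.96), and for Mobp 0.33 (−2.06 to 2.71), so the intervals of the lower genes were wide.

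IFN-γ for 6 h gave no member that passed the test. Against Ctr, in a comparison that shares the Ctr libraries with that of EZH2i, 6 of 8 were lower and 2 higher (median −0.21 on the log2 scale), and 0 passed edgeR's test, where 8.75% of all genes did. With EZH2i in both groups, 6 were lower and 2 higher with a median of −0.10, and 0 passed, where 8.07% did, and with the replicate block 0 passed where 19.3% did. No member had an unadjusted p under 0.05 in either group-only fit, and DESeq2 gave 0 in both. For Mag the log2 fold change against Ctr was 0.06 (95% interval −0.43 to 0.54), for Cnp 0.09 (−0.25 to 0.43) and for Mbp −0.22 (−0.79 to 0.34). The lowest value was that of Ermn, −0.78 (−1.88 to 0.32), on the fewest counts of the 8.

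**Figure D3:**
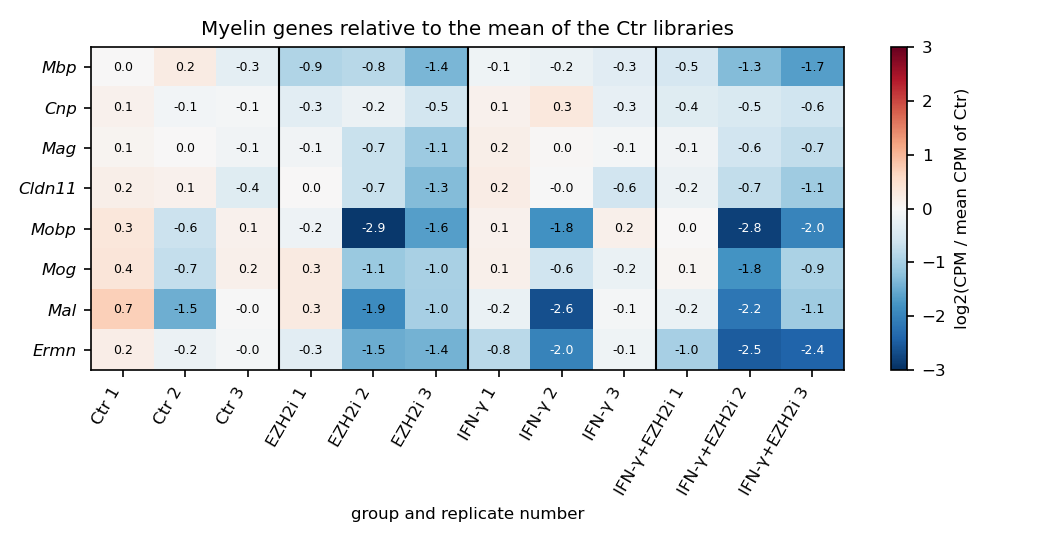
Level of the 8 members tested in each library (columns, by group and replicate number) as log2 of CPM over the mean CPM of the Ctr libraries, with the value written in each cell. In Mag, Cldn11, Mobp, Mog, Mal and Ermn, replicate 1 with EZH2i stands closer to Ctr than replicates 2 and 3 do. In Mbp and Cnp it is replicate 2 that stands closest.

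Correlations between members over the 12 libraries are given as description, since libraries of a group share their treatment. Mag and Cldn11 correlated at r = 0.93 in log2 CPM and Mbp and Mag at 0.87. Mog and Mobp correlated at 0.92 and Mobp and Mal at 0.86, whereas the r of Cnp and Mal was 0.00. The values between these ran without a gap, with 0.75 for Mag and Cnp, 0.72 for Mag and Mobp and 0.63 for Mbp and Mobp. Ermn correlated at 0.85 with Mobp and 0.70 with Mbp. Mobp, Mog and Mal each had their lowest value of every group in replicate 2.

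Outside the 9 genes, the 10 nearest of 14671 genes were found by their correlation with the mean of the 8 standardised members over 12 libraries. Among them were, with Pearson's r and Spearman's rho, Pdlim2 (0.93 and 0.80), Actb (0.93 and 0.92), Hapln2 (0.92 and 0.83) and Gjc3, a connexin of oligodendrocytes (0.92 and 0.97). Sept8, Cc2d1b, Ttl, Gltp and Plekhb1 were also among the 10, with r from 0.89 to 0.91. None of the 10 was among the 10 nearest when deviations from the group means were used in place of levels.

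Mbp is made from more than 1 promoter. Of its 16 transcripts, 4 start upstream, between 82475146 and 82475370 on chromosome 18, as the Golli transcripts of this locus do, and 12 start between 82554470 and 82563262, as those of classic MBP do. The downstream starts had 769, 909 and 633 CPM in Ctr and 389, 413 and 284 with EZH2i. The upstream starts had 44.2, 47.8 and 29.4 CPM in Ctr and 45.2, 43.9 and 27.8 with EZH2i. Without IFN-γ the lower Mbp level with EZH2i was that of the downstream starts, while the upstream starts had a mean of 40.5 ± 9.74 CPM in Ctr and 39.0 ± 9.71 with EZH2i.

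As a share of Mbp counts, the upstream starts made up 4.96% ± 0.500 in Ctr and 9.64% ± 0.748 with EZH2i (SD, n = 3), and the 2 groups did not overlap. With IFN-γ the share was 3.96% ± 1.11, and with both 5.44% ± 1.34, and these overlapped. The upstream starts had 29.7, 35.5 and 18.1 CPM with IFN-γ and 27.7, 23.0 and 11.5 with both agents, so that with IFN-γ present they too were lower with EZH2i in 3 of 3 numbers. Salmon divides reads of shared exons between transcripts, so these values were not tested. Among other members, Mobp-204, a transcript of the nonsense-mediated decay class, took 61.2% to 68.8% of Mobp TPM in Ctr and 46.6% to 70.3% with EZH2i, and Cnp-201, which is protein coding, 71.7% to 76.8% and 72.3% to 77.9% of Cnp TPM.

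**Figure D4:**
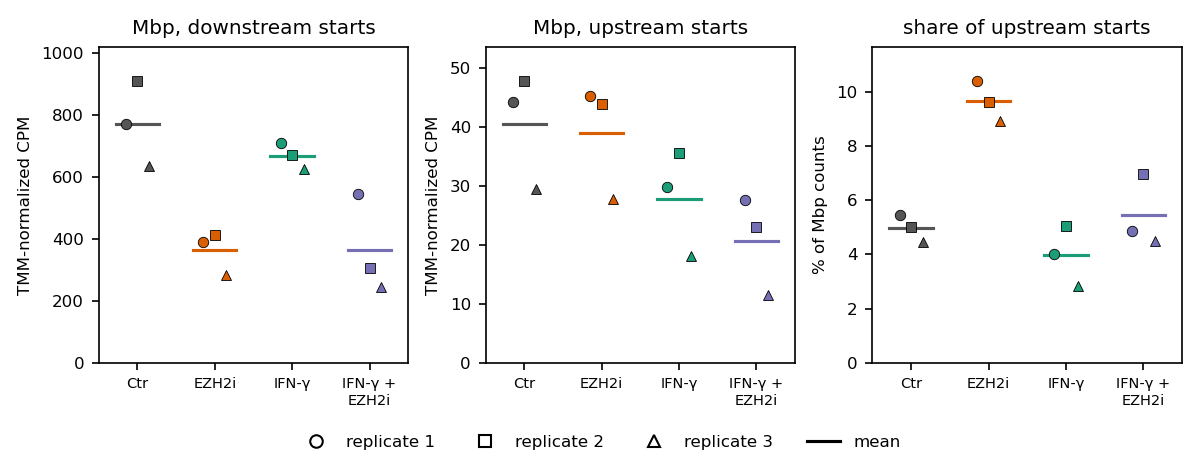
Mbp in each library by the start of its transcripts, as TMM-normalized CPM of the downstream starts (left) and upstream starts (middle) and as the share of upstream starts in Mbp counts in percent (right), where markers give the replicate number and bars the mean of 3 libraries. The downstream starts lie at 284 to 413 CPM with EZH2i and 633 to 909 in Ctr, whereas the upstream starts lie at 27.8 to 45.2 and 29.4 to 47.8.

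The other genes of the lineage were counted in lists, and some genes stand in more than 1 list. Gpr17 is in those of newly formed oligodendrocytes, OPC markers and inhibitors of myelination. Olig1, Olig2 and Sox10 are in those of OPC markers and regulators. Nkx2-2 and Tcf7l2 are in those of newly formed oligodendrocytes and regulators. The counts of these lists are therefore not independent. Over all genes, 8.75% passed edgeR's group-only test for IFN-γ against Ctr, 1264 of 18995 higher and 399 lower. For IFN-γ with EZH2i present 8.07% passed, 1120 higher and 413 lower. With the replicate block, for EZH2i in the presence of IFN-γ, 3.94% passed and 0.827% did so with a lower level. The counts of every list below are to be read beside these shares. Of 34 other myelin and mature oligodendrocyte genes, 23 were lower with EZH2i without IFN-γ and 23 with it, with medians of −0.35 and −0.32 on the log2 scale. None passed edgeR's group-only test in either comparison. With the replicate block in the presence of IFN-γ, 6 of 34 fell and 1 rose. IFN-γ lowered 2 of 34 against Ctr, Ugt8a, the enzyme that makes galactosylceramide, by a log2 fold change of −0.53 (SE 0.13, edgeR adjusted p = 0.0281), and Gpr37, a receptor of the oligodendrocyte lineage, by −0.81 (SE 0.23, edgeR adjusted p = 0.0485). Both also passed with EZH2i present, at −0.64 and −1.31. With the replicate block Ugt8a also fell with EZH2i in the presence of IFN-γ (−0.60, edgeR adjusted p = 0.00392), while Gpr37 did not pass (log2 fold change 0.15).

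Among 19 regulators of myelin genes, 17 were lower with EZH2i in both settings, with medians of −0.38 and −0.37, and 0 passed edgeR's group-only test. With the replicate block in the presence of IFN-γ, 5 of 19 fell and 0 rose. One was Myrf, the factor required for myelin gene expression, named here after its values were seen. Its levels were 74.8, 45.1 and 33.9 CPM in Ctr, 32.1, 25.03 and 20.9 with EZH2i, 57.5, 30.7 and 19.7 with IFN-γ, and 37.2, 13.8 and 12.1 with both. Without IFN-γ the groups with and without EZH2i did not overlap, where 5.34% of all genes were likewise lower without overlap. With IFN-γ present the Myrf groups overlapped. Replicate 1 was the highest of each group. The log2 fold change in the presence of IFN-γ was −0.81 (SE 0.17, edgeR adjusted p = 0.0233) with the replicate block and −0.78 (edgeR adjusted p = 0.941) without it. IFN-γ lowered Sox8, a paralog of SOX10 in the lineage, by −1.07 (SE 0.27, edgeR adjusted p = 0.0270), and raised Zfp536, a zinc finger factor, by 0.95 (SE 0.26, edgeR adjusted p = 0.0451).

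Of 20 genes of newly formed oligodendrocytes, 16 and 17 were lower with EZH2i without and with IFN-γ, with medians of −0.28 and −0.46, and 0 passed edgeR's group-only test in either. With the replicate block in the presence of IFN-γ, 7 of 20 fell and 0 rose. IFN-γ against Ctr lowered Bmp4, a growth factor of the BMP family, by −2.0 (SE 0.41, edgeR adjusted p = 0.00776) and Neu4 by −0.59 (SE 0.16, edgeR adjusted p = 0.0354) and raised Enpp2, the gene of autotaxin, by 1.41 (SE 0.17, edgeR adjusted p = 0.000184), with 5 of 20 changed in all. Gpr17, a receptor of the transition out of the OPC state, fell in the group-only fit with EZH2i present (−1.22, edgeR adjusted p = 0.0234). Without EZH2i its value was −0.64 (edgeR adjusted p = 0.263), and the interaction did not pass (edgeR adjusted p = 1.000).

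Of 18 OPC markers, 0 passed for EZH2i in the group-only fit, with medians of −0.06 and −0.11, and with the replicate block in the presence of IFN-γ 2 fell, Gpr17 and Olig2. In the group-only fit 5 fell with IFN-γ against Ctr, with 0 that rose and a median of −0.47. Pdgfra, the receptor for PDGFaa, had 1293, 1305 and 1916 CPM in Ctr and 676, 536 and 933 with IFN-γ, a log2 fold change of −1.07 (SE 0.24, edgeR adjusted p = 0.0141). Cspg4, the NG2 proteoglycan, changed by −1.16 (SE 0.20, edgeR adjusted p = 0.00245) and Xylt1 by −1.68 (SE 0.21, edgeR adjusted p = 0.000245). None of the 8 myelin genes passed that test.

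Of 19 inhibitors of myelination, 0 passed for EZH2i in the group-only fit. For IFN-γ against Ctr 5 passed, 3 higher and 2 lower, where 8.75% of all genes did. For EZH2i in the presence of IFN-γ, 6 inhibitors passed with the replicate block, 3 higher and 3 lower, where 3.94% of all genes did. Of 16 proliferation genes, 0 passed in any of the 5 contrasts of the group-only fit. With EZH2i against Ctr 14 were lower, with a median of −0.22, but in the presence of IFN-γ 8 were lower, with a median of −0.0026. Of 20 genes of cholesterol synthesis, which supplies the main lipid of myelin, 0 passed for EZH2i in the group-only fit, with medians of 0.01 and 0.12, and 1 rose with the replicate block in the presence of IFN-γ, Msmo1. With IFN-γ against Ctr 2 rose in the group-only fit, Ebp and Hsd17b7.

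**Figure D5:**
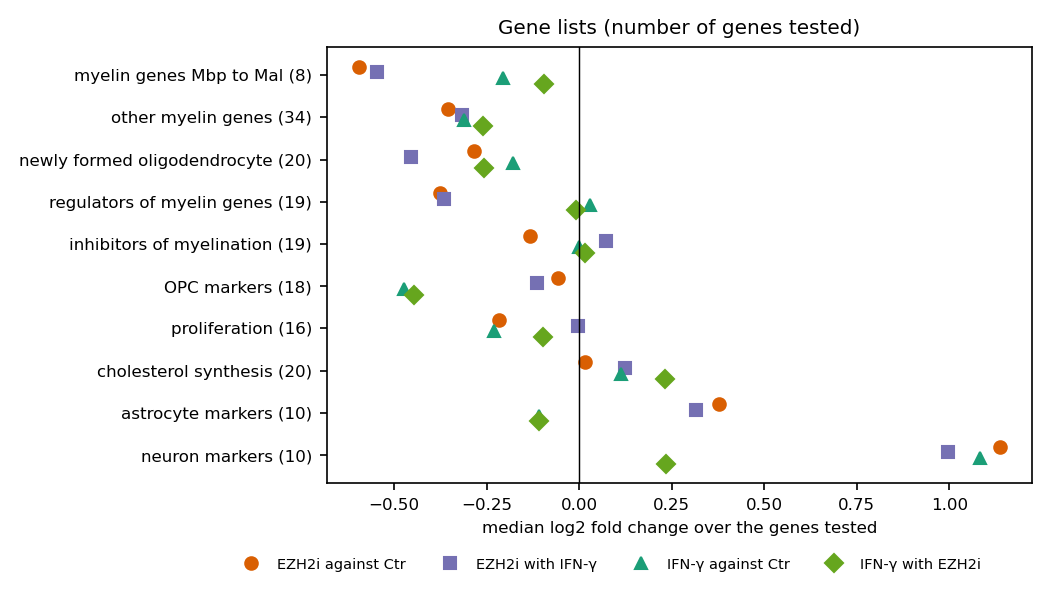
Median log2 fold change over the genes tested of each list (x axis, with the number of genes in brackets on the y axis) in the 4 pairwise comparisons, from the group-only edgeR fit. The myelin genes have the lowest medians for EZH2i, −0.60 and −0.55, and the OPC markers the lowest for IFN-γ, −0.47 and −0.45.

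Markers of other cells were counted too. Astrocyte markers summed to 1663 to 3007 CPM in Ctr and 2070 to 3688 with EZH2i, and to 1574 to 3194 with IFN-γ and 2072 to 3639 with both. Of the 10, 7 were higher with EZH2i without IFN-γ and 8 with it, with medians of 0.38 and 0.32. In the group-only fit 0 passed, and with the replicate block 3 rose in the latter. Gfap, named after its values were seen, had 78.8, 70.4 and 209 CPM in Ctr and 167, 206 and 411 with EZH2i, and 121, 101 and 338 with IFN-γ against 264, 237 and 599.6 with both. Replicate 3 was the highest in every group, and it is the replicate with the lowest Cldn11. Neuron markers summed to 57.3 to 78.0 CPM in Ctr and 70.8 to 118 with EZH2i, but to 708 to 1322 with IFN-γ. Most of the latter was Tubb3 alone, at 669 to 1255 CPM with IFN-γ and 20.7 to 33.6 in Ctr. Tubb3 rose by a log2 fold change of 5.10 (SE 0.36, edgeR adjusted p = 1.24e-06). Of the 10 neuron markers, 1 was lower with EZH2i without IFN-γ and 2 with it, with medians of 1.14 and 1.00. In the group-only fit 0 passed without IFN-γ, and 1 rose with it, Stmn2, where 0.353% of all genes passed. Stmn2 was low, with a mean of 0.854 CPM with IFN-γ and 5.03 with both agents. Endothelial markers summed to 17.2 to 28.03 CPM in Ctr and 39.1 to 59.7 with EZH2i, mural and fibroblast markers to 1.64 to 2.71 and 3.34 to 4.86, and Schwann cell markers to 24.0 to 43.3 and 26.0 to 46.8. The part of these cells in the values of the 9 genes was not tested.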

How the data were processed

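The 12 RNA-seq libraries (TruSeq Stranded Total RNA Gold) were quantified by the authors with Salmon 0.8.2 against mm10 (GRCm38), per the labels and the study's methods. The authors deposited an estimated count and a TPM per transcript for each library. Their 2 tables of DESeq2 comparisons hold fold changes and p-values and were not used. For each gene of GRCm38, the estimated counts of its transcripts were added and then rounded. All 141862 transcripts had a gene, of 55536 in all.

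The test was the quasi-likelihood test of edgeR 4.0.16 in R 4.3.3, with TMM factors and the default filter on low counts (18995 genes left), in 1 model of all 12 libraries whose only term was the group. A gene was called below 0.05 after Benjamini-Hochberg adjustment. The fit was tested on simulated data. The test was repeated with DESeq2 1.42.0, with RLE factors, without the filter or with a minimum of 10 counts in every library, with the replicate block, with length-scaled TPM counts, with protein-coding transcripts only, without mitochondrial and rRNA genes, with only the 6 libraries compared, and without each library in turn. Ratios of means were also taken from library totals only and from deposited TPM. Leaving out replicate number 1 of all groups was added after seeing the data.

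Deviations from group means correlated between libraries of the same number at 0.604, 0.493 and 0.642 (IFN-γ against both agents) and at 0.530, 0.496 and 0.621 (EZH2i against both agents). For replicates 1, 2 and 3 of Ctr such values were 0.441, 0.0467 and 0.495 against EZH2i. They were 0.490, 0.0854 and 0.544 against IFN-γ, and 0.411, 0.0134 and 0.474 against both agents. Replicate 2 of Ctr thus correlated little with its number, whereas replicates 1 and 3 did correlate. Because of replicate 2, the numbers were taken to pair libraries only between the treated groups. The replicate block was still fitted in 1 model of all 12 libraries, so it also grouped the Ctr libraries by number. Its p-values between treated groups rest in part on that grouping, and a block fit of the treated libraries alone was not run.

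The members and gene lists were chosen with earlier results of these data known. All 9 members were named. From each other list the called genes were eligible, at most 5 by size of change among those averaging 1 CPM or more, and where none was called the 3 with the highest TPM. Not every eligible gene is described. The genes most alike were the 10 with the highest Pearson correlation with the mean of the standardised members. Some of the genes so chosen are not reported here. Promoter sequences are from RefSeq (GRCm38.p6), with 8 of the 9 symbols matched.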

Additional observations from a re-analysis of the deposited data

How the results depend on the processing

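Under all alternatives the 8 members tested kept a negative log2 fold change with EZH2i against Ctr (176 of 176 values), and 174 of 176 did in the presence of IFN-γ, where Mal reached at most 0.021. For EZH2i against Ctr, the numbers were not taken to pair the libraries, since replicate 2 of Ctr correlated little with its number. There the replicate block called 4 members (Mbp, Mag, Cldn11, Mobp) and 771 of all genes in place of 77. DESeq2 called 1 (Mbp) and 308, and leaving out 1 library called 0 to 1 (Mbp without replicate 1 of IFN-γ with EZH2i) and 11 to 83. All genes called were 121 without the filter, 29 with at least 10 counts, 48 with length-scaled TPM, 33 with only the 6 libraries and 0 without replicate number 1. In the presence of IFN-γ the replicate block called 4 members and 748 genes in place of 67, DESeq2 263, at least 10 counts 11, length-scaled TPM 30, only the 6 libraries 7, no replicate number 1 0, and leaving out 1 library 10 to 65. For IFN-γ the replicate block called 4032 genes in place of 1663, and 3661 in place of 1533 with EZH2i, and it changed no other count of members. The cause was not tested.

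The IFN-γ effects and the interaction, none of which passed the test, changed direction in part. With length-scaled TPM counts Mbp was 0.022 for IFN-γ with EZH2i present. Without replicate number 1, Mobp was −0.23 and Cldn11 0.049 there, and the interaction of Mbp was −0.13. Leaving out 1 library gave these ranges of the log2 fold change. In the presence of IFN-γ, Mal spanned −0.92 to 0.021 for EZH2i. For IFN-γ against Ctr, Mog spanned −0.46 to 0.016, Mag −0.0075 to 0.11, Mobp −0.54 to 0.14, Cnp −0.0429 to 0.23 and Cldn11 −0.26 to 0.12. For IFN-γ with EZH2i present, Mbp spanned −0.47 to 0.16, Mog −0.85 to 0.33, Mag −0.10 to 0.42, Mobp −1.19 to 1.03, Cldn11 −0.35 to 0.34 and Mal −0.90 to 0.41. In the interaction, Mbp spanned −0.23 to 0.39, Mog −0.64 to 0.52, Mag −0.14 to 0.37, Mobp −0.91 to 1.30, Cldn11 −0.26 to 0.42, Ermn −0.68 to 0.45 and Mal −0.29 to 1.01. On the deposited TPM scale, the log2 ratio of Cnp with EZH2i to Ctr was −0.0254, and for IFN-γ to Ctr Cldn11 was 0.16 and Mog 0.031, both on the other side of 0.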
